A study of Mus musculus with 50 samples.

Results

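Regulatory T cells (Treg) from visceral adipose tissue (VAT) were compared with Treg from ear skin in 14 of the 50 RNA-seq libraries of the series, 8 from VAT and 6 from ear skin. The libraries were taken by the tissue name at the start of their column in the deposited count table, and the arm named there, DT or PBS, entered the model as a term. VAT had 4 DT-labelled and 4 PBS-labelled libraries, and ear skin had 3 of each. All 14 came from male mice, 20 weeks old and labelled as wild type in genotype, of a B6.129(Cg) strain with the allele Foxp3tm3(HBEGF/GFP)Ayr, in which the Foxp3 locus carries the diphtheria toxin receptor and GFP. In the study's design, littermates with or without the receptor received diphtheria toxin on 3 consecutive days at 12 weeks of age, so that receptor-bearing animals lost their Foxp3+ cells, and rested for 8 to 9 weeks while Treg came back. The design text gives toxin to both arms, whereas the sample names call the control arm PBS, and all libraries carry the same strain label. The arms are therefore called DT-labelled and PBS-labelled here. Each library held 500 to 1000 twice-sorted CD4+ Foxp3-GFP+ cells. The tissues were digested by protocols of their own, so tissue and digestion cannot be told apart. Whether each library had a mouse of its own is not stated, so the p-values reflect spread between libraries, which may be technical.

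Treg are CD4+ T cells that restrain other immune cells and depend on the transcription factor Foxp3. Those that settle in visceral fat are known for the nuclear receptor PPARγ, the IL-33 receptor ST2 (gene Il1rl1), KLRG1 and GATA3, and for effects on insulin sensitivity. Those in skin lie close to hair follicles and are known for CD103, the integrin chain that binds E-cadherin on epithelium, and for the skin-homing receptors CCR8 and CCR10.

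The sorted identity held in both tissues. Foxp3 stood at 322 to 490.4 CPM (median 387) in VAT, against 349 to 438 CPM (median 373) in ear skin, and in each of the 14 libraries Cd3e was at least 441 CPM, Cd4 at least 489 CPM and Ctla4 at least 648 CPM. CPM are counts scaled to a common library size with TMM factors, which correct for composition. Deposited totals were 3706591 to 5663805 counts in VAT and 2521078 to 3692580 in ear skin. Fewer genes had a count in VAT (21812 to 27526) than in ear skin (29191 to 33651), also after all libraries were thinned to the smallest total (19141 to 25368 against 27080 to 32026). Olfactory and vomeronasal receptor genes, 1999 in all and not expected in T cells, summed to 165 to 628 CPM in VAT and 921 to 1829 CPM in ear skin. The part of this background signal in the calls on weakly expressed genes was not tested.

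Markers of other cell types were read from 19 lists. Their summed levels overlapped between tissues for 17 lists. Keratinocyte markers did not overlap, at 11.1 to 22.9 CPM in VAT and 28.0 to 55.9 CPM in ear skin, and 6 of the 7 tested were lower in VAT, while Lor was at 0 in every VAT library. Schwann cell markers were higher, at 129 to 204 CPM in VAT and 68.5 to 117 CPM in ear skin, with Mbp called of 2 tested. B cell markers spread over 402 to 6322 CPM in VAT and 244 to 648 CPM in ear skin, and Ighm and Cd79b were called higher of 8 tested. Ighm, the immunoglobulin heavy chain, made up nearly all of that sum. It stood at 397 to 6456 CPM in VAT, against 227 to 585 CPM in ear skin, and the VAT libraries DT-labelled 5 and 7 and PBS-labelled 1 and 4 were the highest. These 4 were also high in Igkc, the light chain, and in Jchain, with at least 1748 and 388 CPM, but the B cell genes Ms4a1 and Cd79a reached at most 4.88 and 9.22 CPM in them. PBS-labelled 2 had 377 CPM of Igkc and 95.4 CPM of Jchain, where ear skin had at most 34.1 and 1.15 CPM. It stayed in the fits without the 4, which therefore do not remove all of this signal. DT-labelled 7 also had a fibroblast marker sum of 1290 CPM, next to at most 94.2 CPM in the other VAT libraries and 95.6 to 163 CPM in ear skin. Its macrophage sum was 124 CPM, against at most 16 CPM in the other VAT libraries. Both CD8 T cell markers were called higher (16.5 to 87.9 CPM in VAT, 10.6 to 26.6 CPM in ear skin).

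The remaining lists had few tested markers. Called lower in VAT were 2 of 4 mesothelial, 3 of 5 endothelial, 2 of 6 dendritic and Langerhans, 1 of 2 mast cell and 3 of 5 skeletal muscle markers, and called higher were 1 mesothelial and 1 dendritic or Langerhans marker. None was called among the tested markers of adipocytes (1), fibroblasts (9), melanocytes (1), macrophages (4), neutrophils (1), NK cells (3), chondrocytes (1) and erythroid cells (1). No gamma delta T cell or male germ cell marker passed the filter. Adipocyte markers summed to 1.2 to 11.2 CPM in VAT and 6.03 to 18.2 CPM in ear skin. Tyr, Tpsb2, Klra8, Tnnc2, Hba-a2, Hbb-bs and Tnp1 were at 0 in all VAT libraries, and Cfd, Hba-a2, Hbb-bt and Smcp in all ear skin libraries. Apart from the values given below without the 4 VAT libraries high in Ighm, the part of other cells in the results was not tested. In bulk samples, fewer cells of a type and less RNA per cell cannot be told apart.

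VAT and ear skin Treg differed over a large part of the transcriptome. Of 15099 genes tested, 5559 (36.8%) passed an edgeR quasi-likelihood test at an adjusted p of 0.05, 2661 (17.6%) higher and 2898 (19.2%) lower in VAT. The first principal component held 41.0% of the variance, against 7.8% for the next. Correlations of log expression across genes were 0.931 to 0.962 within VAT, 0.922 to 0.945 within ear skin and 0.872 to 0.921 between the tissues.

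The direction of the calls went with expression level. Among 8909 genes of at least 10 CPM on average, 2402 (27%) were higher and 1098 (12.3%) lower in VAT, 3500 in all (39.3%), so that 68.6% of these calls were higher. Among 6190 genes under 10 CPM, 259 (4.18%) were higher and 1800 (29.1%) lower. The split among the better expressed genes depended on scaling: 59.4% of calls were higher with relative log expression (RLE) size factors, 59.3% after thinning, and 48.4% when the model was fitted to those genes alone, which moved fold changes by −0.135 on the log2 scale. Log2 fold changes run VAT over ear skin throughout, with a median of −0.03 over all tested genes, and sizes given with a standard error (SE) are on this scale. The counts of gene lists read against the shares of all genes, 17.6% higher and 19.2% lower. Most lists hold mainly genes of at least 10 CPM, for which 27% higher and 12.3% lower are the closer measure. A list whose shares lie near these shows nothing of its own. Some genes, such as Ahr, Icos and Bhlhe40, belong to several lists, so the lists are not independent of each other. No overlap between the 8 VAT and the 6 ear skin libraries was seen for 1053 genes higher and 717 lower in VAT. These were 6.97% and 4.75% of those tested, whether called or not. The 15 largest changes named in each direction were picked among called genes of at least 10 CPM without overlap. For those genes the lack of overlap was a condition of naming and not a further result.

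**Figure D1:**
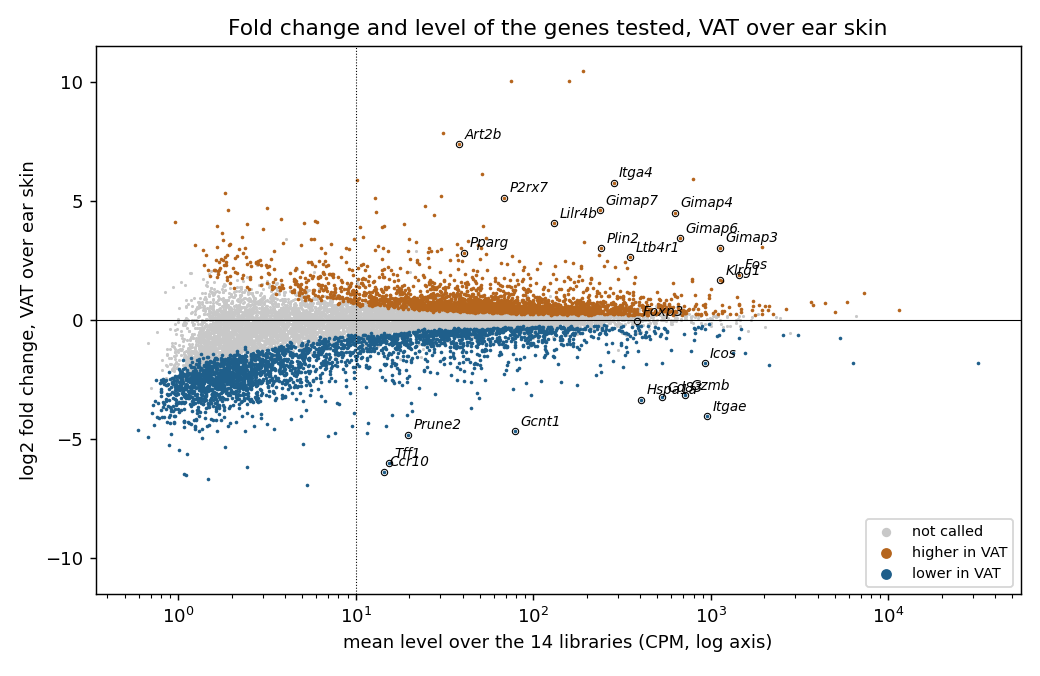
Log2 fold change of VAT over ear skin Treg (vertical axis) against mean expression over the 14 libraries in CPM on a log axis, one point per gene, with called genes coloured and the dotted line at 10 CPM. Right of the line 2402 genes were called higher and 1098 lower, and left of it 259 higher and 1800 lower.

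Integrin genes stood near both ends of the ranking, with the α4 chain high in VAT and the αE chain high in ear skin. Itga4, at chr2:79255426-79333123 of mm10, encodes integrin α4, which pairs with β1 or β7 and binds VCAM-1 and MAdCAM-1. It stood at 399 to 634 CPM (median 476) in VAT, against 2.90 to 16.7 CPM (median 7.45) in ear skin. The lowest VAT library was far above the highest ear skin library, and the log2 fold change was 5.76 ± 0.21 (SE, edgeR adjusted p = 6.09e-13). Itgae, at chr11:73090583-73147446, encodes CD103. It stood at 48.2 to 209 CPM (median 142) in VAT, against 1654 to 2498 CPM (median 2039.6) in ear skin, again without overlap, with a log2 fold change of −4.04 ± 0.25 (SE, edgeR adjusted p = 1.05e-07).

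The partners of these chains moved less. Itgb7, which pairs with both, stood at 407 to 1590.0 CPM (median 1164) in VAT, against 473 to 1294 CPM (median 995) in ear skin, and was not called (edgeR adjusted p = 0.705). Itgb1 was higher at 1.65 on the log2 scale, with overlapping libraries, at 88.8 to 439.9 CPM (median 268) in VAT, against 42.8 to 117 CPM (median 67.8) in ear skin. Both genes were chosen after their values were seen. Over the list of 28 integrin and adhesion genes, 27 were tested, of which 10 were higher and 7 lower in VAT, with a median of 0.16. Icam2, a ligand of LFA-1, rose by 2.51 ± 0.19 (SE, edgeR adjusted p = 4.85e-09), and Selplg, which encodes the selectin ligand PSGL-1, by 0.92 ± 0.08 (SE, edgeR adjusted p = 3.97e-08). Itgb8, whose αvβ8 integrin releases active TGF-β, fell by 1.68 ± 0.13 (SE, edgeR adjusted p = 5.35e-09), and its partner Itgav fell by 1.06 ± 0.15 (SE, edgeR adjusted p = 2.65e-05), all 4 without overlap.

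Gcnt1 encodes the core 2 enzyme that branches O-glycans, a step in making selectin ligands on T cells. It stood at 4.88 to 10.1 CPM (median 6.51) in VAT, against 89.3 to 231 CPM (median 181) in ear skin. Every ear skin library was well above every VAT library, with a log2 fold change of −4.67 ± 0.19 (SE, edgeR adjusted p = 5.27e-13).

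The ADP-ribosyltransferase Art2b had the largest rise among the genes that passed the naming rule. ART2 enzymes on the mouse T cell surface use extracellular NAD to modify other surface proteins, among them the ATP-gated channel P2X7. Art2b stood at 20.7 to 109 CPM (median 76.5) in VAT, against 0 to 0.77 CPM (median 0.43) in ear skin, where 7 counts were seen in all 6 libraries together. The log2 fold change was 7.37 ± 0.45 (SE, edgeR adjusted p = 1.28e-09). P2rx7 stood at 45.5 to 196 CPM (median 121) in VAT, against 0.77 to 6.03 CPM (median 2.54) in ear skin, with no overlap and a log2 fold change of 5.13 ± 0.40 (SE, edgeR adjusted p = 4.32e-07). The neighbouring copy Art2a was higher too, at 8.78 to 32.6 CPM (median 22.6) in VAT, against 0 to 2.16 CPM (median 0.63) in ear skin. Reads shared by Art2a and Art2b could be split between them, so their separate values are uncertain.

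The GTPases of immunity-associated proteins (Gimap), which act in lymphocyte survival, were higher in VAT in all 8 members of at least 10 CPM, under each scaling tried. Their genes lie in a cluster on chromosome 6, from Gimap8 at 48647234 to Gimap3 at 48770851 of mm10. Gimap4 stood at 750.4 to 1279 CPM (median 1107) in VAT, against 29.0 to 95.3 CPM (median 36.7) in ear skin. Gimap6 stood at 897 to 1338 CPM (median 1088) in VAT, against 67.5 to 171 CPM (median 85.8) in ear skin, and Gimap7 at 310.3 to 575 CPM (median 399.7) in VAT, against 8.17 to 28.1 CPM (median 15.6) in ear skin. None of the 3 overlapped, and the log2 fold changes were 4.5 ± 0.27, 3.44 ± 0.18 and 4.61 ± 0.24 (± SE), with edgeR adjusted p of 5.63e-08, 5.82e-10 and 2.07e-09. The other members, chosen after their values were seen, also rose without overlap: Gimap3 by 3.04 ± 0.12, Gimap9 by 2.41 ± 0.15, Gimap5 by 2.29 ± 0.15, Gimap1 by 2.18 ± 0.11 and Gimap8 by 1.82 ± 0.09. The antisense transcript Gimap1os rose by 3.30, but whether counting used strand is not given in the sources used here, so its reads cannot be told from those of the genes it overlaps.

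**Figure D2:**
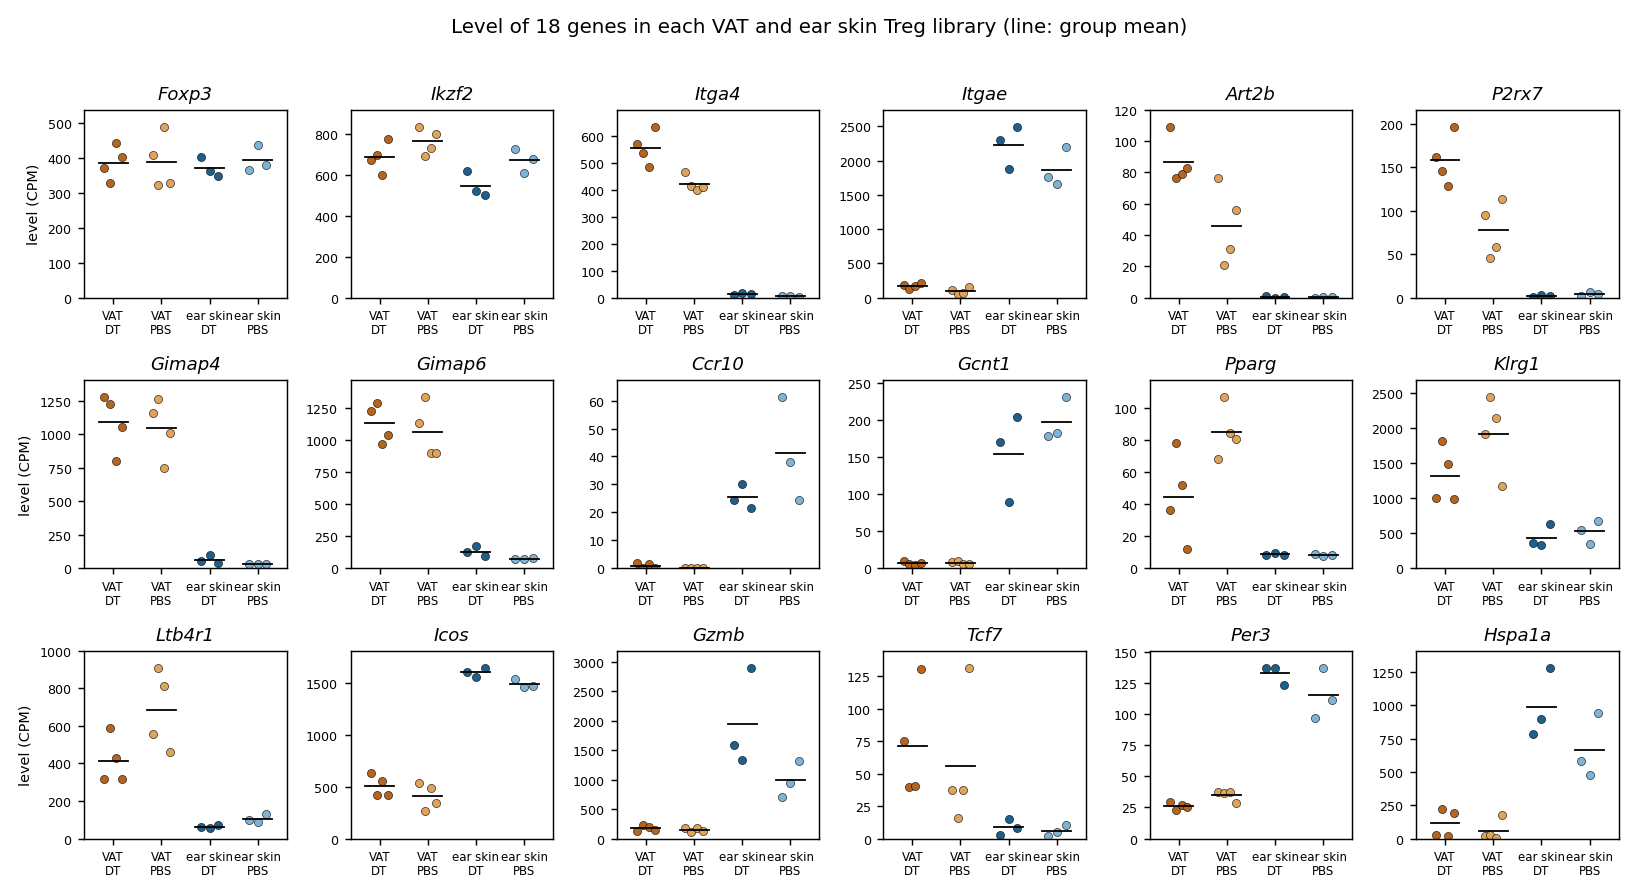
Expression of 18 genes in CPM (vertical axes) in DT-labelled and PBS-labelled VAT and ear skin Treg, one point per library and a line at each group mean. Itga4, Gimap4, Art2b and P2rx7 are high in all 8 VAT libraries, Itgae, Gcnt1, Ccr10 and Icos in all 6 ear skin libraries, and Foxp3 and Ikzf2 overlap.

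Further large rises in VAT included genes of surface receptors and of oxidant production. Cybb, the catalytic subunit of the phagocyte NADPH oxidase, stood at 8.62 to 40.3 CPM (median 22.0) in VAT, against 0.26 to 3.02 CPM (median 1.5) in ear skin. Gpr34, a receptor for lysophosphatidylserine, stood at 10.8 to 26.4 CPM (median 15.9) in VAT, against 0 to 3.51 CPM (median 0.80) in ear skin. Neither overlapped, and the folds were 3.93 ± 0.46 (SE, edgeR adjusted p = 3.03e-06) for Cybb and 3.92 ± 0.50 (SE, edgeR adjusted p = 7.13e-06) for Gpr34, which became 4.74 without ear skin DT-labelled library 5. Asb2, the substrate adaptor of a ubiquitin ligase, rose by 3.42 ± 0.44 (SE, edgeR adjusted p = 7.67e-05), and by 4.06 without ear skin DT-labelled library 6, which stood apart at 29.2 CPM.

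Lilr4b and Lilrb4a are near-copies whose reads could be split between them, and Lilrb4a encodes an inhibitory receptor. They stood at 147 to 262 CPM (median 221) and 48.3 to 119 CPM (median 90.3) in VAT, against 0.79 to 26.5 CPM (median 12.0) and 0.53 to 10.8 CPM (median 5.23) in ear skin. Ly6c1, a surface protein of memory T cells with the near-copy Ly6c2, stood at 28.0 to 67.5 CPM (median 46.4) in VAT, against 0.26 to 3.32 CPM (median 2.18) in ear skin. Tmem273 stood at 18 to 59.1 CPM (median 42.3) in VAT, against 0.53 to 2.65 CPM (median 1.33) in ear skin. All 4 rose without overlap, by 4.07, 3.95, 4.42 and 4.78.

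On the ear skin side the chemokine receptor Ccr10, whose ligand CCL27 is made by keratinocytes, stood at 0 to 1.96 CPM (median 0) in VAT, against 21.6 to 61.3 CPM (median 27.4) in ear skin. It was at 0 in all 4 PBS-labelled VAT libraries. The fitted log2 fold change was −6.37 ± 0.67 (SE, edgeR adjusted p = 6.2e-06), and −7.58 without VAT DT-labelled library 5. Tff1, a trefoil factor that protects mucosal surfaces, stood at 0 to 2.46 CPM (median 0.30) in VAT, against 11.6 to 66.3 CPM (median 29.4) in ear skin, with a fold of −6.01 ± 0.45 (SE, edgeR adjusted p = 1.06e-08) that became −6.73 without VAT PBS-labelled library 2. Jaml, an adhesion molecule that binds the epithelial protein CAR, stood at 0.54 to 6.19 CPM (median 3.17) in VAT, against 38.5 to 54.3 CPM (median 41.3) in ear skin (−3.81 ± 0.29 SE, edgeR adjusted p = 5.35e-09).

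Prune2, the kinase gene Cdc42bpb, the neural adhesion genes Cntnap1 and Dscam, the endocytic adaptor Sgip1 and the Ras exchange factor Rasgef1b were all near the floor in VAT. Their highest VAT library was at 10.3 CPM (Rasgef1b) and their lowest ear skin library at 14.5 CPM (Dscam). The log2 fold changes were −4.81 ± 0.32 for Prune2, −4.72 ± 0.34 for Cdc42bpb, −4.46 ± 0.35 for Cntnap1, −4.32 ± 0.44 for Sgip1, −3.99 ± 0.41 for Dscam and −3.69 ± 0.19 for Rasgef1b. Dusp16, a phosphatase of JNK and p38, fell by 3.46 ± 0.47 (SE, edgeR adjusted p = 6.95e-05), and Fam129b fell by 3.25 ± 0.25 (SE, edgeR adjusted p = 5.85e-08). Cd83, a surface molecule of activated lymphocytes, stood at 56.4 to 175 CPM (median 91.2) in VAT, against 536 to 1887 CPM (median 916) in ear skin, and fell by 3.24 ± 0.34 (SE, edgeR adjusted p = 2.32e-05).

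Core Treg genes divided rather than moving together. Of 26 genes tested, 9 were higher and 8 lower in VAT, a balance that turned to 7 and 8 with RLE size factors and to 5 and 10 in the fit to genes of at least 10 CPM. The median was −0.08. Il2ra and Ctla4 were not called, at 475 to 1359.6 CPM (median 731) in VAT, against 624 to 819 CPM (median 689.8) in ear skin, and 648 to 1512 CPM (median 1123) in VAT, against 750.5 to 1167 CPM (median 1019.9) in ear skin. Ikzf2, which encodes the thymic Treg factor Helios, missed the threshold (0.20 ± 0.08 SE, edgeR adjusted p = 0.0602) but passed it when any 1 of ear skin PBS-labelled 1 or 3, ear skin DT-labelled 4 or VAT DT-labelled 7 was left out (adjusted p of 0.0193 to 0.0428).

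Nrp1, a surface receptor of thymus-derived Treg, stood at 289.7 to 761 CPM (median 546) in VAT, against 112 to 187 CPM (median 147) in ear skin, without overlap (1.80 ± 0.13 SE, edgeR adjusted p = 1.98e-09). The costimulatory receptor Icos went the other way, at 263 to 633 CPM (median 456) in VAT, against 1457 to 1644 CPM (median 1548) in ear skin, again without overlap (−1.82 ± 0.13 SE, edgeR adjusted p = 1.36e-08). Without the 4 VAT libraries high in Ighm, 6 core genes were higher and 6 lower.

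Genes known from VAT Treg both rose and fell. Of 25 tested, 10 rose, 6 fell and the median was 0.76. Rises also outnumbered falls among all genes of at least 10 CPM, with 27% higher, 12.3% lower and a median of 0.13. Pparg, the adipogenic nuclear receptor, stood at 11.7 to 107 CPM (median 73.4) in VAT, against 7.84 to 9.72 CPM (median 8.10) in ear skin. Although 1 VAT library was at 11.7 CPM, no library overlapped, and the fold was 2.82 ± 0.35 (SE, edgeR adjusted p = 2.76e-05). Klrg1, an inhibitory lectin-like receptor, stood at 987 to 2447 CPM (median 1656) in VAT, against 331 to 679 CPM (median 451) in ear skin (1.68 ± 0.24 SE, edgeR adjusted p = 0.000167). Il1rl1 was at 575 to 1327 CPM (median 697) in VAT, against 299.9 to 493 CPM (median 323) in ear skin, so that ear skin Treg also had high ST2 message, and the fold was 1.08 ± 0.18 (SE, edgeR adjusted p = 0.000444).

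Gata3, the type 2 lineage factor, stood at 1454 to 2393 CPM (median 1633) in VAT, against 716 to 1154 CPM (median 854) in ear skin (0.97 ± 0.13 SE, edgeR adjusted p = 1.24e-05). The eotaxin receptor Ccr3 rose by 1.74 ± 0.15 (SE, edgeR adjusted p = 2.31e-08), and Pcyt1a, the rate-limiting enzyme of phosphatidylcholine synthesis, by 1.84 ± 0.18 (SE, edgeR adjusted p = 1.12e-06). Other genes of this list were as high or higher in ear skin. Dgat2, which makes triglyceride, stood at 13.4 to 41.6 CPM (median 24.2) in VAT, against 62.6 to 179.7 CPM (median 129) in ear skin (−2.28 ± 0.19 SE, edgeR adjusted p = 8.03e-08). Rora fell by 0.48 ± 0.09 (SE, edgeR adjusted p = 0.000452). Areg, an epidermal growth factor ligand, was at 199.8 to 1013 CPM (median 499) in VAT, against 369 to 532 CPM (median 448) in ear skin, and Ccr2 at 609.9 to 1422 CPM (median 874) in VAT, against 566 to 991 CPM (median 777) in ear skin, and neither was called. Il10 was not called (−1.27 ± 0.51 SE, edgeR adjusted p = 0.0699), but passed without VAT PBS-labelled library 1 (adjusted p = 0.0355), with DESeq2 (0.0146) and with limma voom (0.00434). The fatty acid transporter Cd36 was near the floor in both tissues, at 0 to 13.0 CPM (median 0.21) in VAT, against 0 to 2.3 CPM (median 1.24) in ear skin, and its highest value came from VAT DT-labelled library 7, without which the log2 difference was −0.33.

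The skin Treg list was lower in VAT in 13 of 18 tested genes, with 1 higher (Gata3) and a median of −1.22. Ahr, the aryl hydrocarbon receptor, stood at 4.10 to 11.4 CPM (median 5.14) in VAT, against 23.9 to 51.2 CPM (median 35.4) in ear skin (−2.58 ± 0.27 SE, edgeR adjusted p = 3.37e-07). Ccr8 stood at 82.7 to 243 CPM (median 159) in VAT, against 294 to 545 CPM (median 361) in ear skin, and Ccr6 at 13.0 to 43.9 CPM (median 28.0) in VAT, against 109.8 to 244 CPM (median 178) in ear skin. Both fell without overlap, Ccr8 with a log2 fold change of −1.36 ± 0.19 (SE, edgeR adjusted p = 5.57e-05) and Ccr6 of −2.65 ± 0.29 (SE, edgeR adjusted p = 1.88e-05).

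Trafficking receptors were called in both directions. Of 25 chemokine and lipid-guided receptors tested, 9 were higher and 10 lower in VAT, a balance that read 10 and 7 when all 32 peripheral libraries entered the fit and 9 and 9 in the fit to genes of at least 10 CPM, with a median of 0.18. Ltb4r1, the high-affinity receptor of leukotriene B4, stood at 315 to 909.6 CPM (median 509) in VAT, against 55.9 to 129 CPM (median 81.7) in ear skin, with no overlap (2.64 ± 0.18 SE, edgeR adjusted p = 1.6e-08). S1pr4, a sphingosine-1-phosphate receptor, rose by 1.01 ± 0.09 (SE, edgeR adjusted p = 6.42e-08). Ptgdr2, a receptor for prostaglandin D2, had 3 counts in the 8 VAT libraries together and stood at 3.96 to 21.6 CPM (median 12.0) in ear skin. Ccr4 was not called, at 159.7 to 273 CPM (median 219) in VAT, against 127 to 211 CPM (median 163) in ear skin, but passed without ear skin PBS-labelled library 1 or 3 or VAT PBS-labelled library 4 (adjusted p of 0.0396 to 0.0418). The next receptors were chosen after their values were seen. Gpr55, a receptor for lysophosphatidylinositol, stood at 10.3 to 34.1 CPM (median 24.0) in VAT, against 111 to 275 CPM (median 206) in ear skin (−3.15 ± 0.24 SE, edgeR adjusted p = 2.42e-07). Cxcr3, a receptor for interferon-induced chemokines, rose by 2.46 ± 0.44 (SE, edgeR adjusted p = 0.00118), and Ccr9, the gut-homing receptor, by 3.03 ± 0.64 (SE, edgeR adjusted p = 0.00325), which became 2.38 without VAT PBS-labelled library 1.

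Among chemokines, 10 were tested, 3 of them higher and 1 lower, with a median of 1.18. Cxcl3 and Cxcl2, which attract neutrophils, stood at 7.06 to 88.7 CPM (median 24.7) and 33.3 to 718 CPM (median 186) in VAT, against 0 to 4.22 CPM (median 1.16) and 26.2 to 72.0 CPM (median 34.6) in ear skin. The libraries did not overlap for Cxcl3 (4.05 ± 0.60 SE, edgeR adjusted p = 0.00018) and did for Cxcl2 (2.40 ± 0.56 SE, edgeR adjusted p = 0.00647). Ccl5 rose by 1.91 ± 0.40 (SE, edgeR adjusted p = 0.00336). Cxcl10 fell by 0.93 ± 0.32 (SE, edgeR adjusted p = 0.0326), a call lost when any 1 of 8 libraries was left out: ear skin PBS-labelled 2 and 3, ear skin DT-labelled 4, 5 and 6, VAT PBS-labelled 4 and VAT DT-labelled 6 and 7 (adjusted p of 0.0508 to 0.0871).

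Genes of lipid metabolism were read as 4 lists, which were not tested against each other. Mitochondrial fatty acid oxidation was higher in VAT in 11 of 20 tested genes and lower in none, with a median of 0.49. Cpt1a, the gatekeeper of fatty acid entry into mitochondria, stood at 142 to 241 CPM (median 185) in VAT, against 37.9 to 97.5 CPM (median 72.9) in ear skin (1.29 ± 0.16 SE, edgeR adjusted p = 7.04e-06). The acyl-CoA dehydrogenases Acadl and Acadvl rose by 0.96 ± 0.11 (SE, edgeR adjusted p = 1.96e-06) and by 0.76 ± 0.11 (SE, edgeR adjusted p = 3.46e-05), and Decr1, which handles unsaturated fatty acids, by 1.66 ± 0.23 (SE, edgeR adjusted p = 1.41e-05). All 4 were free of overlap.

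Lipid uptake and storage genes showed no common direction. Of 28 tested, 5 rose and 4 fell, which read 5 and 5 with RLE size factors and in the fit to genes of at least 10 CPM, and 5 and 7 without VAT DT-labelled library 7, with a median of −0.08. Plin2, which coats lipid droplets, stood at 127 to 751 CPM (median 328) in VAT, against 23.2 to 57.5 CPM (median 43.2) in ear skin, with no overlap (3.01 ± 0.40 SE, edgeR adjusted p = 0.000149). Fabp5, the epidermal fatty acid binding protein, fell by 0.98 ± 0.16 (SE, edgeR adjusted p = 9.76e-05). Cholesterol synthesis had 3 higher and 0 lower of 22, with a median of 0.14. The 3 were Sqle (1.13 ± 0.29 SE, edgeR adjusted p = 0.00799), Ebp (0.56 ± 0.11 SE, edgeR adjusted p = 0.000802) and Sc5d (0.71 ± 0.13 SE, edgeR adjusted p = 0.000263). Their number was 7 without ear skin PBS-labelled library 1, 6 without ear skin DT-labelled library 5 or VAT DT-labelled library 5, and 5 without ear skin DT-labelled library 4 or VAT PBS-labelled library 1. It was 7 without the 4 VAT libraries high in Ighm and 8 with no filter on low counts. None was lower here, but 1 was with RLE size factors, with DESeq2, with all 32 peripheral libraries, with no term for arm, after thinning, in the fit to genes of at least 10 CPM and without ear skin PBS-labelled library 3 or VAT PBS-labelled library 2 or 4, and 2 were without VAT DT-labelled library 6.

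Targets of the sterol sensor LXR had 2 higher and 2 lower of 11, which turned to 1 and 3 with RLE size factors, with DESeq2 and after thinning, to 1 and 4 in the fit to genes of at least 10 CPM and to 3 and 1 with all 32 peripheral libraries, and a median of −0.13. Abca1, a cholesterol exporter, fell clearly, at 1.49 to 13.8 CPM (median 4.90) in VAT, against 20.2 to 38.7 CPM (median 28.7) in ear skin (−2.31 ± 0.35 SE, edgeR adjusted p = 7.94e-05). Lpcat3, a phospholipid remodelling enzyme, rose by 0.78 ± 0.14 (SE, edgeR adjusted p = 0.000209). The calls on Npc2 (0.24 ± 0.08 SE, edgeR adjusted p = 0.0264) and Abcg1 (−0.33 ± 0.12 SE, edgeR adjusted p = 0.0344) were lost without any 1 of VAT PBS-labelled 1, 2 and 3 and VAT DT-labelled 6 (Npc2, 0.0577 to 0.0846) and of ear skin PBS-labelled 3, ear skin DT-labelled 4, 5 and 6 and VAT DT-labelled 6 (Abcg1, 0.0572 to 0.123).

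Glycolysis genes were lower in VAT in 12 of 17 and higher in 2, with a median of −0.56. Tpi1, an enzyme of the middle of the pathway, stood at 154 to 271 CPM (median 200.2) in VAT, against 337 to 754 CPM (median 468) in ear skin (−1.33 ± 0.13 SE, edgeR adjusted p = 1.13e-07). The terminal enzyme Pkm stood at 957 to 1306 CPM (median 1136) in VAT, against 1463 to 2416 CPM (median 1738) in ear skin, Gapdh at 409 to 517 CPM (median 433) in VAT, against 536 to 867 CPM (median 744) in ear skin, and the lactate exporter Slc16a3 at 17.3 to 27.9 CPM (median 20.6) in VAT, against 38.6 to 69.4 CPM (median 44.8) in ear skin. No library of these 4 genes overlapped. Their log2 fold changes were −1.33 ± 0.13 (Tpi1), −0.75 ± 0.09 (Pkm), −0.76 ± 0.09 (Gapdh) and −1.29 ± 0.15 (Slc16a3). Hk2, the inducible hexokinase and chosen after its values were seen, fell by 1.95 ± 0.33 (SE, edgeR adjusted p = 0.000146). Gapdh is often used as a reference gene for expression.

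Hypoxia response genes were lower in 6 of 18 and higher in 1, with a median of −0.72, and 3 were lower without ear skin PBS-labelled library 3, 12 with DESeq2 and 10 with limma voom. Bnip3, a mitophagy receptor, fell by 1.95 ± 0.27 (SE, edgeR adjusted p = 1.81e-05), Ndrg1 fell by 0.84 ± 0.16 (SE, edgeR adjusted p = 0.000668) and Ero1l fell by 0.67 ± 0.18 (SE, edgeR adjusted p = 0.00806), whereas Bnip3l rose by 0.32 ± 0.09 (SE, edgeR adjusted p = 0.0123). Messages of the mitochondrial genome were lower in 4 of 9, with a median of −0.41, and in 2 of 9 without ear skin PBS-labelled library 1, ear skin DT-labelled library 4 or 5, or without the 4 VAT libraries high in Ighm. mt-Co1 fell by 0.64 ± 0.12 (SE, edgeR adjusted p = 0.000418) and mt-Nd1 fell by 0.61 ± 0.14 (SE, edgeR adjusted p = 0.00275). mt-Nd4 (−0.41 ± 0.13 SE, edgeR adjusted p = 0.0176) and mt-Nd2 (−0.38 ± 0.14 SE, edgeR adjusted p = 0.0403) were lost as calls without any 1 of 3 (ear skin PBS-labelled 1 and DT-labelled 4 and 5, adjusted p of 0.0538 to 0.0999) and of 9 libraries (all ear skin libraries but PBS-labelled 3, VAT PBS-labelled 4 and VAT DT-labelled 5, 6 and 7, 0.0536 to 0.213). Without ear skin PBS-labelled library 1 the folds were −0.25 and −0.23.

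Transcription factors known from tissue Treg were lower in VAT in 20 of 31 tested and higher in 7, with a median of −0.57. Tox2 led the rises, at 32.4 to 123 CPM (median 70.0) in VAT, against 5.40 to 10.5 CPM (median 9.59) in ear skin (3.13 ± 0.30 SE, edgeR adjusted p = 7.96e-07). Bhlhe40, a repressor induced by activation, stood at 61.5 to 189 CPM (median 109.8) in VAT, against 306 to 557 CPM (median 375) in ear skin (−1.89 ± 0.17 SE, edgeR adjusted p = 5.07e-07). Batf, an AP-1 family factor that drives tissue Treg programmes, stood at 183 to 213 CPM (median 196) in VAT, against 229 to 316 CPM (median 301) in ear skin (−0.57 ± 0.08 SE, edgeR adjusted p = 2.89e-05), and Irf4, its partner, fell by 0.99 ± 0.12 (SE, edgeR adjusted p = 4.25e-06). Nfil3 fell by 2.09 ± 0.24 (SE, edgeR adjusted p = 1.6e-05).

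NF-κB genes fell in 12 of 20 and rose in 2, with a median of −0.40. Relb, a subunit of the non-canonical arm, stood at 61.8 to 113 CPM (median 88.2) in VAT, against 159 to 235 CPM (median 189) in ear skin (−1.23 ± 0.13 SE, edgeR adjusted p = 3.21e-07), and its partner Nfkb2 fell by 0.70 ± 0.09 (SE, edgeR adjusted p = 1.02e-05). Of 2 regulators that bind A20, Tnip2 fell by 1.14 ± 0.12 (SE, edgeR adjusted p = 3.25e-07) and Tnip3 rose by 1.80 ± 0.30 (SE, edgeR adjusted p = 9.91e-05). TNF receptor family genes fell in 7 of 15 and rose in 4, with a median of −0.55. Tnfrsf1b, which encodes TNFR2, stood at 518 to 708 CPM (median 626) in VAT, against 839 to 1292 CPM (median 1025) in ear skin (−0.83 ± 0.09 SE, edgeR adjusted p = 4.87e-07), and Tnfrsf9, which encodes 4-1BB, fell by 1.48 ± 0.18 (SE, edgeR adjusted p = 1.45e-05). Tnfrsf25, which encodes DR3, rose by 0.77 ± 0.12 (SE, edgeR adjusted p = 6.86e-05), and Tnfrsf26 by 1.70 ± 0.17 (SE, edgeR adjusted p = 2.56e-07).

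Type 1 and cytotoxic genes were higher in 7 of 14 and lower in 2, with a median of 1.3. Stat4, which carries the IL-12 signal, stood at 108 to 149 CPM (median 128) in VAT, against 12.6 to 27.5 CPM (median 21.9) in ear skin (2.5 ± 0.14 SE, edgeR adjusted p = 6.63e-11). Tbx21, which encodes T-bet and was chosen after its values were seen, rose by 2.11 ± 0.48 (SE, edgeR adjusted p = 0.00506). Granzyme B went against this direction: Gzmb stood at 109 to 227 CPM (median 165) in VAT, against 698 to 2896 CPM (median 1327) in ear skin (−3.15 ± 0.26 SE, edgeR adjusted p = 1.79e-06), and so did Il18r1, a receptor chain for IL-18 (−1.56 ± 0.21 SE, edgeR adjusted p = 3.74e-05). Ly6c1 and Ly6c2, 2 of the 7, are near-copies. Type 3 genes were lower in 5 of 12 and higher in 1 (Ltb4r1), with a median of −1.04, and 8 were lower with DESeq2, with limma voom and with no filter on low counts. Type 2 genes divided into 5 higher and 6 lower of 16, which turned to 5 and 4 in the fit to genes of at least 10 CPM, to 6 and 5 with all 32 peripheral libraries and to 6 and 6 after thinning, with a median of 0.03.

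Among inhibitory and costimulatory receptors, 8 of 24 were higher and 7 lower, which turned to 7 and 10 in the fit to genes of at least 10 CPM, with a median of −0.04. Pdcd1, which encodes PD-1, stood at 194 to 732 CPM (median 349.6) in VAT, against 47.1 to 121 CPM (median 67.6) in ear skin (2.29 ± 0.16 SE, edgeR adjusted p = 3.64e-09). Havcr2, which encodes TIM-3, stood at 11.6 to 25 CPM (median 18.1) in VAT, against 70.0 to 144 CPM (median 95.3) in ear skin (−2.53 ± 0.20 SE, edgeR adjusted p = 9.94e-09). Cd226, an activating receptor for nectin-family ligands, rose by 1.65 ± 0.14 (SE, edgeR adjusted p = 3.28e-08), and none of the 3 overlapped. T cell receptor response genes were higher in 7 of 20 and lower in 4, or 6 and 6 in the fit to genes of at least 10 CPM, with a median of 0.24. Myc, a transcription factor of cell growth, stood at 185 to 266 CPM (median 228) in VAT, against 63.7 to 149.7 CPM (median 80.8) in ear skin (1.3 ± 0.15 SE, edgeR adjusted p = 1.7e-06).

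The list of killer lectin-like receptors, which also held Clec2 genes, had 3 higher and 1 lower of 8, with a median of 0.33. The 3 were Klrg1, Clec2i and Clec2d. The Clec2 genes encode ligands of such receptors, so Klrg1 was the only receptor of the list called higher. Clec2i rose by 2.89 ± 0.38 (SE, edgeR adjusted p = 8.15e-06). Klrb1f fell by 2.13 ± 0.60 (SE, edgeR adjusted p = 0.00866), a call lost without ear skin DT-labelled library 6 (0.0511), and Clec2d rose by 0.63 ± 0.24 (SE, edgeR adjusted p = 0.0416), a call lost without any 1 of ear skin PBS-labelled 3, ear skin DT-labelled 5 and 6, VAT PBS-labelled 4 and VAT DT-labelled 5 and 8 (0.0529 to 0.106), with DESeq2 (0.0572) or with limma voom (0.0533).

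Genes of quiescent, recirculating T cells were higher in 12 of 21 tested and lower in 2, with a median of 1.27. Klf2, which drives exit from tissue, stood at 22.9 to 45.4 CPM (median 25.1) in VAT, against 5.27 to 9.45 CPM (median 6.64) in ear skin (2.00 ± 0.19 SE, edgeR adjusted p = 1.34e-07). Lef1, a factor of naive and memory T cells, rose by 1.37 ± 0.15 (SE, edgeR adjusted p = 1.03e-06), and the complement regulator Cd55 by 1.34 ± 0.19 (SE, edgeR adjusted p = 1.57e-05). The next 2 were chosen after their values were seen. Tcf7, which encodes TCF-1, stood at 15.6 to 132 CPM (median 39.9) in VAT, against 2.38 to 15.1 CPM (median 6.86) in ear skin (3.02 ± 0.59 SE, edgeR adjusted p = 0.00215). S1pr1, the receptor for egress from tissue, rose by 1.27 ± 0.18 (SE, edgeR adjusted p = 4.87e-05). The members that fell were Ccr7 and Satb1, and 9 rose and 3 fell without the 4 VAT libraries high in Ighm, while the fall of 1 of the 2 was lost without ear skin PBS-labelled library 3.

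Receptors and signal carriers of the common γ chain cytokines were higher in 10 of 18 and lower in 1, or 4 and 1 in the fit to genes of at least 10 CPM and 6 higher after thinning, with a median of 0.30. Il2rb, a chain of the IL-2 and IL-15 receptors, stood at 996 to 1257 CPM (median 1111) in VAT, against 599 to 741 CPM (median 676) in ear skin (0.69 ± 0.08 SE, edgeR adjusted p = 1.37e-06). Stat6, which carries the IL-4 signal, rose by 0.59 ± 0.08 (SE, edgeR adjusted p = 2.06e-05), Jak1 by 0.42 ± 0.08 (SE, edgeR adjusted p = 0.000591) and the feedback inhibitor Socs3 by 0.68 ± 0.18 (SE, edgeR adjusted p = 0.00718). In the IL-33 and IL-1 family, 6 of 15 were higher and 2 lower, with a median of 0.02 whose sign turned with RLE size factors (−0.05). Without VAT DT-labelled library 7, 5 were lower, and without ear skin DT-labelled library 5 or VAT DT-labelled library 5, 4. With RLE size factors and with DESeq2 5 were lower, and with limma voom 4. Il1r2, the decoy receptor for IL-1, stood at 27.6 to 71.8 CPM (median 56.9) in VAT, against 222 to 493 CPM (median 330.2) in ear skin (−2.73 ± 0.22 SE, edgeR adjusted p = 4.44e-07). The kinase Irak4 rose by 1.36 ± 0.14 (SE, edgeR adjusted p = 4.28e-07) and the inhibitory receptor Sigirr by 0.84 ± 0.10 (SE, edgeR adjusted p = 1.89e-06).

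Effector cytokines and repair factors were higher in 5 of 21 and lower in 7, with a median of −0.25. Fgl2, a secreted suppressor molecule of Treg, stood at 453 to 1446 CPM (median 795) in VAT, against 212 to 345 CPM (median 276) in ear skin (1.56 ± 0.23 SE, edgeR adjusted p = 0.000232). Osm rose by 0.77 ± 0.15 (SE, edgeR adjusted p = 0.000571), and Lta, which encodes lymphotoxin α, fell by 2.23 ± 0.26 (SE, edgeR adjusted p = 1.52e-06). TGF-β pathway genes were lower in 6 of 18 and higher in 2, with a median of −0.39. Smad7, the inhibitory Smad that TGF-β induces, stood at 16.4 to 28.8 CPM (median 23.1) in VAT, against 64.3 to 115 CPM (median 93.5) in ear skin (−2.03 ± 0.15 SE, edgeR adjusted p = 4.51e-09), and Tgif1, a corepressor of Smads, fell by 0.96 ± 0.16 (SE, edgeR adjusted p = 0.000194).

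The aryl hydrocarbon, vitamin D and retinoid receptors and their partners and targets were lower in 6 of 13 and higher in 2, or lower in 3 with a replicate block over the 10 libraries with shared numbers, with a median of −0.78. Dhrs3, a retinaldehyde reductase induced by retinoic acid, stood at 24.9 to 74.7 CPM (median 35.7) in VAT, against 2.7 to 10.3 CPM (median 4.49) in ear skin (2.86 ± 0.31 SE, edgeR adjusted p = 9.68e-07). The corepressor Nrip1 rose by 1.76 ± 0.20 (SE, edgeR adjusted p = 3.11e-06), and Rxra, the shared partner of nuclear receptors, fell by 1.05 ± 0.14 (SE, edgeR adjusted p = 5.31e-06). Steroid and prostaglandin genes were higher in 4 of 12 and lower in 1, or 2 higher with no term for arm, with a median of 0.55. Hsd11b1, which activates glucocorticoids, rose by 0.53 ± 0.12 (SE, edgeR adjusted p = 0.00187). Hpgd, which breaks down prostaglandin E2, spread over 0.39 to 80.8 CPM (median 17.1) in VAT, against 0 to 6.03 CPM (median 1.62) in ear skin (3.04 ± 0.91 SE, edgeR adjusted p = 0.021). The prostacyclin receptor Ptgir rose by 0.57 ± 0.18 (SE, edgeR adjusted p = 0.0201), a call lost in the fit to genes of at least 10 CPM (adjusted p = 0.0717), and Ptger4, a receptor for prostaglandin E2, fell by 0.44 ± 0.11 (SE, edgeR adjusted p = 0.0041).

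Immediate early genes were higher in 13 of 23 and lower in 2, with a median of 0.90. Fosb stood at 137 to 583 CPM (median 395) in VAT, against 33.3 to 72.9 CPM (median 52.6) in ear skin, and Jun at 344 to 639 CPM (median 541) in VAT, against 61.2 to 130.2 CPM (median 86.2) in ear skin. Both are subunits of the AP-1 factor and neither overlapped (Fosb 2.72 ± 0.38 SE, edgeR adjusted p = 0.00022, Jun 2.42 ± 0.19 SE, edgeR adjusted p = 7.3e-08). Ppp1r15a, which is induced by stress and restores translation, rose by 1.63 ± 0.18 (SE, edgeR adjusted p = 8.57e-06), and Fos, chosen after its values were seen, by 1.90 ± 0.37 (SE, edgeR adjusted p = 0.00239). These genes respond to tissue handling as well as to receptor signals, and tissue and its digestion cannot be told apart here. Without ear skin PBS-labelled library 3 none of the list was lower.

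Heat shock genes did not share a direction with them. Of 15 tested, 4 fell and 2 rose, with a median of −0.36, and 7 fell with limma voom and in the fit to genes of at least 10 CPM, but 2 with all 32 peripheral libraries. Hspa1a, the stress-induced HSP70, stood at 7.23 to 222 CPM (median 29.7) in VAT, against 480.0 to 1284 CPM (median 844) in ear skin. The groups did not overlap and the fold was −3.35 ± 0.73 (SE, edgeR adjusted p = 0.00441), or −4.05 without VAT PBS-labelled library 4. In the contrast within the DT-labelled arm, with spread taken from all 14 libraries, the fold was −3.15 with an edgeR adjusted p of 0.0665. Hspa1b, a near-identical copy, fell by 2.49 ± 0.63 (SE, edgeR adjusted p = 0.00965), and the split of reads between the copies is uncertain. Hsph1 fell by 1.04 ± 0.29 (SE, edgeR adjusted p = 0.0151), a call lost without the 4 VAT libraries high in Ighm (adjusted p = 0.109), whereas Hspa5, the chaperone of the endoplasmic reticulum, rose by 0.68 ± 0.09 (SE, edgeR adjusted p = 1.29e-05). The number that fell was 8 without VAT DT-labelled library 8, and 1 of the 2 rises was lost without ear skin DT-labelled library 4, VAT PBS-labelled library 1 or 3, or VAT DT-labelled library 5 or 7.

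Circadian clock genes were lower in VAT in 14 of 21 tested, 7 of them without overlap, and higher in 1, with a median of −0.80. The clock runs on CLOCK and BMAL1, which switch on Per, Cry, Nr1d1, Tef, Hlf and Ciart through E-boxes, while TEF, HLF and NFIL3 act on D-boxes. Per3, a repressor of the loop, stood at 23.3 to 37.7 CPM (median 28.8) in VAT, against 97.2 to 137 CPM (median 130.1) in ear skin (−2.08 ± 0.13 SE, edgeR adjusted p = 2.35e-10). Hlf stood at 5.39 to 15.7 CPM (median 11.9) in VAT, against 32.5 to 83.2 CPM (median 49.1) in ear skin (−2.21 ± 0.21 SE, edgeR adjusted p = 8.16e-08), and Nr1d1, which encodes REV-ERBα, at 27.7 to 66.2 CPM (median 50.6) in VAT, against 82.9 to 123 CPM (median 103) in ear skin (−1.15 ± 0.13 SE, edgeR adjusted p = 1.26e-06). Tef and Ciart, chosen after their values were seen, stood at 19.8 to 44.9 CPM (median 36.6) and 2.87 to 11.2 CPM (median 7.56) in VAT, against 59.9 to 75.6 CPM (median 67.3) and 16.1 to 52.7 CPM (median 27.3) in ear skin. They fell without overlap, with log2 fold changes of −1.01 ± 0.15 (SE, edgeR adjusted p = 3.19e-05) and −2.10 ± 0.30 (SE, edgeR adjusted p = 2.18e-05).

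The core activator gene Arntl, which encodes BMAL1, was not called (0.24 on the log2 scale), nor were Npas2, Cry1, Cry2, Dbp and Usp2. Per1 fell by 0.79 ± 0.18 (SE, edgeR adjusted p = 0.00296), and Per2, chosen after its values were seen, fell by 1.77 ± 0.41 (SE, edgeR adjusted p = 0.00235). The hour at which each tissue was taken is not given in the sources used here, so time of day and tissue cannot be told apart. Clock genes fell in 10 of 21 in the DT-labelled libraries, where none rose, and in 11 of 21 in the PBS-labelled libraries, where Tsc22d3 rose.

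Promoter sequences of 4 of these genes show where the letters of the known response elements lie. They are the 250 bases before the annotated start (RefSeq, GRCm38.p6), 5′ to 3′ on the gene's strand, with the motif in capitals: CACGTG for the E-box, TTANGTAA for the D-box and GAANNTTC for the heat shock element. CACGTG and GAANNTTC read the same on both strands, TTANGTAA was searched on both, and the matches shown do not overlap. Tef, Ciart and Per3 were shown as clock genes with a match, and Hspa1a as the heat shock gene with the largest change. Ciart is at chr3:95882229-95882478 (minus strand), Tef at chr15:81802423-81802672 (plus), Per3 at chr4:151044666-151044915 (minus) and Hspa1a at chr17:34972157-34972406 (minus).
Ciart: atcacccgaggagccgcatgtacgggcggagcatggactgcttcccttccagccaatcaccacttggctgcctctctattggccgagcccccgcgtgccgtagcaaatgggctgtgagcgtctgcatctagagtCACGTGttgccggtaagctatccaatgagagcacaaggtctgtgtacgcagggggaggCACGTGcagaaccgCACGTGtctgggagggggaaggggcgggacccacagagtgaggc
Tef: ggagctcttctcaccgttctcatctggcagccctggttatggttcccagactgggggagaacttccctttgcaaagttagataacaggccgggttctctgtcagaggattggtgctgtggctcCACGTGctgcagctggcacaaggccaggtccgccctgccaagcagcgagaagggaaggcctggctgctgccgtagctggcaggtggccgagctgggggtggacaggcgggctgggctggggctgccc
Per3: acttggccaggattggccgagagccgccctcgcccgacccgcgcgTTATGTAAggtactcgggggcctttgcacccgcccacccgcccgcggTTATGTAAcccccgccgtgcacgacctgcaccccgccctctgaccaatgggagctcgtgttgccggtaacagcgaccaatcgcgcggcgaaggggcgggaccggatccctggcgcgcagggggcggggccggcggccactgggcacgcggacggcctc
Hspa1a: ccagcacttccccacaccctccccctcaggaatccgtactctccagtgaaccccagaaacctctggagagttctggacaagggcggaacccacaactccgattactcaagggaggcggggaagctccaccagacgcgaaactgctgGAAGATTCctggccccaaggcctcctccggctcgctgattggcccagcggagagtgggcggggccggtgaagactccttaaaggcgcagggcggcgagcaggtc
Ciart held 3 E-boxes, Tef 1 E-box, Per3 2 D-boxes and Hspa1a 1 heat shock element. Of 32851 promoters of this length, 6.02% held an E-box, 2.06% a D-box and 6.69% a heat shock element. Of the 18 clock genes with a promoter listed, 5 held an E-box (Per1, Cry1, Tef, Ciart and Bhlhe41), of which Cry1 was not called, and 1 a D-box. A gene was counted if any of its promoters held the motif, unlike the shares above, which are of promoters. Of the 25 promoters of these clock genes, 6 (24%) held an E-box and 1 (4%) a D-box. Of the 11 heat shock genes with a promoter listed, 6 held the element, in 6 of their 17 promoters (35.3%). They were Hspa1a, Hspa1b, Dnaja1, Hspe1, Hspd1 and Hspb1, and only Hspa1a and Hspa1b of these were called. The windows of these copies were identical at 247 of 250 bases.

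Glucocorticoid response genes had 3 higher and 3 lower of 10, or 3 and 4 in the fit to genes of at least 10 CPM, with a median of 0.27. Tsc22d3, which encodes the glucocorticoid-induced protein GILZ, rose by 0.65 ± 0.13 (SE, edgeR adjusted p = 0.000935), and Fkbp5, a cochaperone of the receptor, by 0.61 ± 0.14 (SE, edgeR adjusted p = 0.00198). Il1r2 and Per1, named above, were among those that fell. In DT-labelled libraries 0 of the list rose and 2 fell, and in PBS-labelled libraries 4 rose and 1 fell. The calls on Tsc22d3 (edgeR adjusted p = 0.124) and Fkbp5 (0.229) were lost in the DT-labelled arm, and that on Per1 in the PBS-labelled arm (0.092).

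Interferon response genes were higher in 11 of 25 and lower in none, with a median of 0.61, and 7 were higher in the fit to genes of at least 10 CPM. Ifi209, a DNA-sensing family member, stood at 182 to 251 CPM (median 203) in VAT, against 48.5 to 85.5 CPM (median 60.2) in ear skin (1.65 ± 0.12 SE, edgeR adjusted p = 1.62e-09). Its relative Ifi203 rose by 0.70 ± 0.10 (SE, edgeR adjusted p = 1.86e-05), Bst2, which tethers budding virus, by 0.76 ± 0.15 (SE, edgeR adjusted p = 0.000519) and Ifi27l2a by 0.58 ± 0.12 (SE, edgeR adjusted p = 0.00106). Without the 4 VAT libraries high in Ighm, 7 were higher and 1 lower. Interferon-inducible GTPases had 4 higher and 2 lower of 15, which turned to 2 and 3 in the fit to genes of at least 10 CPM and to 1 and 2 without those 4 libraries, with a median of 0.26. Of the 2 falls, 1 was lost without ear skin PBS-labelled library 3 or ear skin DT-labelled library 4. Irgm1 stood at 79.1 to 157 CPM (median 116) in VAT, against 16.4 to 72.7 CPM (median 46.0) in ear skin (1.3 ± 0.22 SE, edgeR adjusted p = 0.000369), Gbp2 rose by 0.95 ± 0.27 (SE, edgeR adjusted p = 0.0139) and Gbp7 by 0.41 ± 0.12 (SE, edgeR adjusted p = 0.0114), and Gbp4 fell by 0.54 ± 0.15 (SE, edgeR adjusted p = 0.00825). The call of Gbp2 was lost without those 4 libraries (adjusted p = 0.0506), as was that of Gbp7 (0.123). Guanylate-binding proteins include near-copies, so single Gbp values are uncertain.

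MHC class II and loading genes were higher in 3 of 10 and lower in 1, with a median of −0.24 against the sign of that count. H2-DMa rose by 0.81 ± 0.20 (SE, edgeR adjusted p = 0.00407), H2-Oa by 1.40 ± 0.39 (SE, edgeR adjusted p = 0.00901) and H2-Ob by 1.29 ± 0.33 (SE, edgeR adjusted p = 0.00587), and Cd74, the invariant chain, fell by 1.2 ± 0.31 (SE, edgeR adjusted p = 0.0106). In PBS-labelled libraries 0 of the list rose and 1 fell, and in DT-labelled libraries 2 rose and 0 fell. H2-Oa was called in neither arm (edgeR adjusted p of 0.0526 in DT-labelled and 0.142 in PBS-labelled libraries). H2-Ob (0.12) and H2-DMa (0.262) were not called in PBS-labelled libraries, nor was Cd74 (0.341) in DT-labelled libraries. With the replicate block the calls on H2-Oa (0.0966) and H2-Ob (0.0934) were lost. Cell cycle genes were mostly not called, 27 of 30, with 3 lower and a median of −0.37. The 3 were Mki67 (−0.98 ± 0.32 SE, edgeR adjusted p = 0.0313), Uhrf1 (−0.93 ± 0.32 SE, edgeR adjusted p = 0.0351) and Kif23 (−0.60 ± 0.23 SE, edgeR adjusted p = 0.0463). Each call was lost when any 1 of several libraries was left out: 5 for Mki67 (ear skin PBS-labelled 1 and 3 and DT-labelled 6, VAT PBS-labelled 1 and 2, adjusted p of 0.0523 to 0.0785), 9 for Uhrf1 (all ear skin libraries but DT-labelled 6, VAT PBS-labelled 3 and VAT DT-labelled 5, 7 and 8, 0.0526 to 0.094) and 10 for Kif23 (all ear skin libraries but DT-labelled 6, VAT PBS-labelled 1, 2 and 3 and VAT DT-labelled 7 and 8, 0.0534 to 0.122). The count was 8 without VAT DT-labelled library 6 and 0 without ear skin PBS-labelled library 1 or 3.

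**Figure D3:**
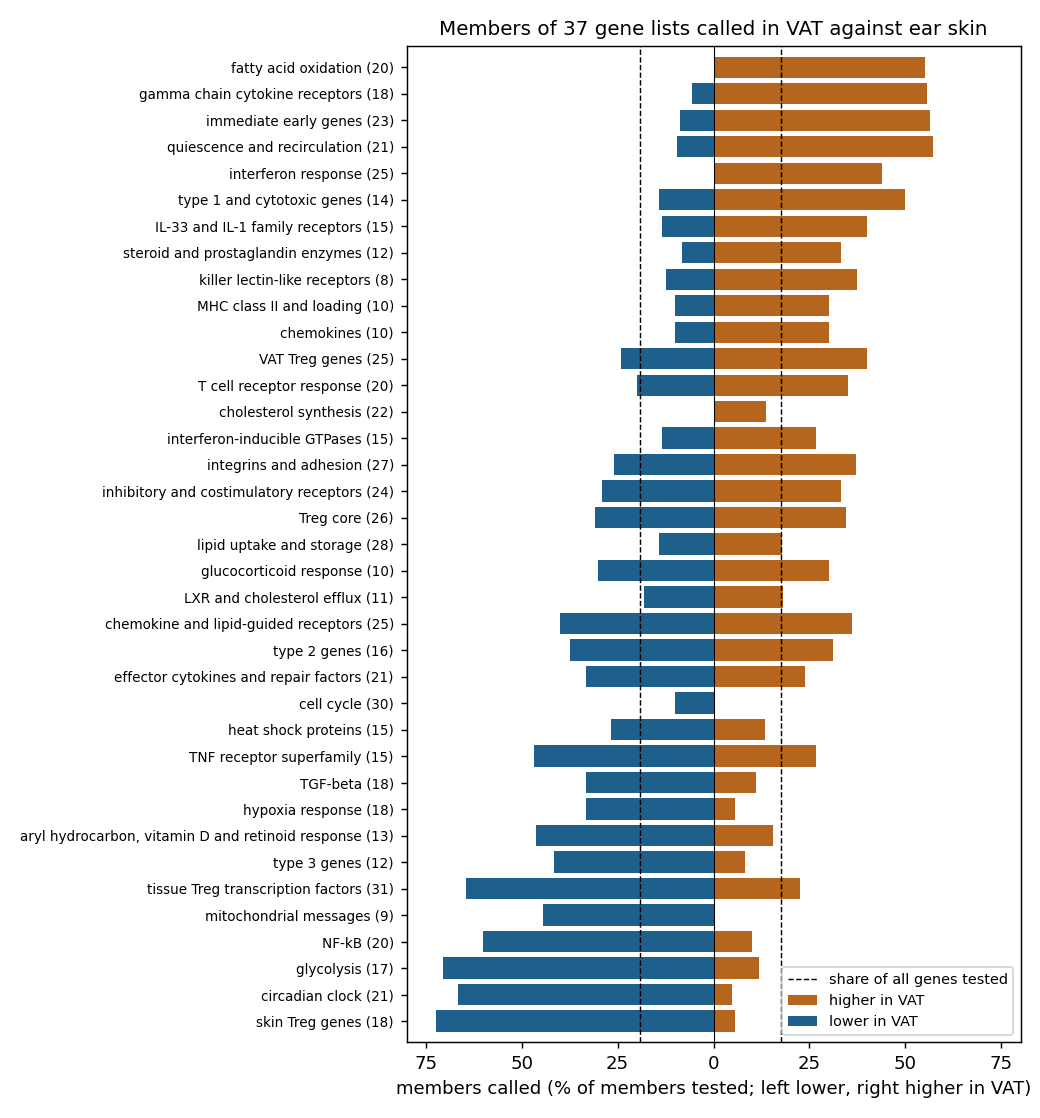
Share of the tested members of each of 37 gene lists called lower (left) and higher (right) in VAT than in ear skin Treg, in percent, with dashed lines at the shares of all tested genes, 19.2% lower and 17.6% higher. Among genes of at least 10 CPM the shares, not drawn, were 12.3% lower and 27% higher. Skin Treg genes, glycolysis, the circadian clock, transcription factors and NF-κB reach furthest left. Quiescence, immediate early genes, γ chain receptors and fatty acid oxidation reach furthest right.

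The tissue difference was present in both arms. Within the DT-labelled libraries 2619 genes (17.3%) passed, 1433 higher (9.49%) and 1186 lower (7.85%), and within the PBS-labelled libraries 2872 (19%) passed, 1514 higher (10%) and 1358 lower (8.99%). The count was 1621 without ear skin DT-labelled library 5 and 1823 without ear skin PBS-labelled library 2, each within its own arm. Both arms called 1474 genes, which is 56.3% of the DT-labelled and 51.3% of the PBS-labelled calls, and 1471 of them had the same direction. For Itga4 the log2 fold change was 5.35 in DT-labelled and 6.30 in PBS-labelled libraries, for Itgae −3.73 and −4.33, for Pparg 2.31 and 3.31, and for Ltb4r1 2.64 and 2.64. Not every named gene was called within each arm. In DT-labelled libraries 34 named genes lost their call, among them Fos, Tbx21, Ccr9 and Per2, and 1 gained a call. In PBS-labelled libraries 23 lost it, among them Ccl5 and Per1, and 1 gained a call.

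No gene passed edgeR's test of the difference between the arms, 0 of 15099. At an unadjusted p under 0.05 there were 984 (6.52%), DESeq2 called 26, and limma voom called 0. Il10, the suppressive cytokine, is given as an example that did not pass this test. In DT-labelled libraries it stood at 81.0, 194, 171 and 75.5 CPM in VAT, against 548, 516 and 826 CPM in ear skin. In PBS-labelled libraries it stood at 397, 255, 296 and 69.2 CPM in VAT, against 227, 293 and 266 CPM in ear skin. The tissues did not overlap in the DT-labelled arm and did in the PBS-labelled arm. The folds were −2.33 (edgeR adjusted p = 0.0115) in DT-labelled and −0.10 (edgeR adjusted p = 0.913) in PBS-labelled libraries, and their difference had an unadjusted p of 0.0113 and an adjusted p of 0.588.

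Ccr2, the receptor for CCL2, had a fold of −0.30 in DT-labelled libraries (edgeR adjusted p = 0.286) and 0.68 in PBS-labelled libraries (edgeR adjusted p = 0.0224), with an adjusted p of 0.474 for the difference. Over both tissues, DT-labelled against PBS-labelled libraries gave 49 calls (0.325%), 20 higher (0.132%) and 29 lower (0.192%) in DT-labelled libraries, a count that was 22 without VAT PBS-labelled library 2.

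**Figure D4:**
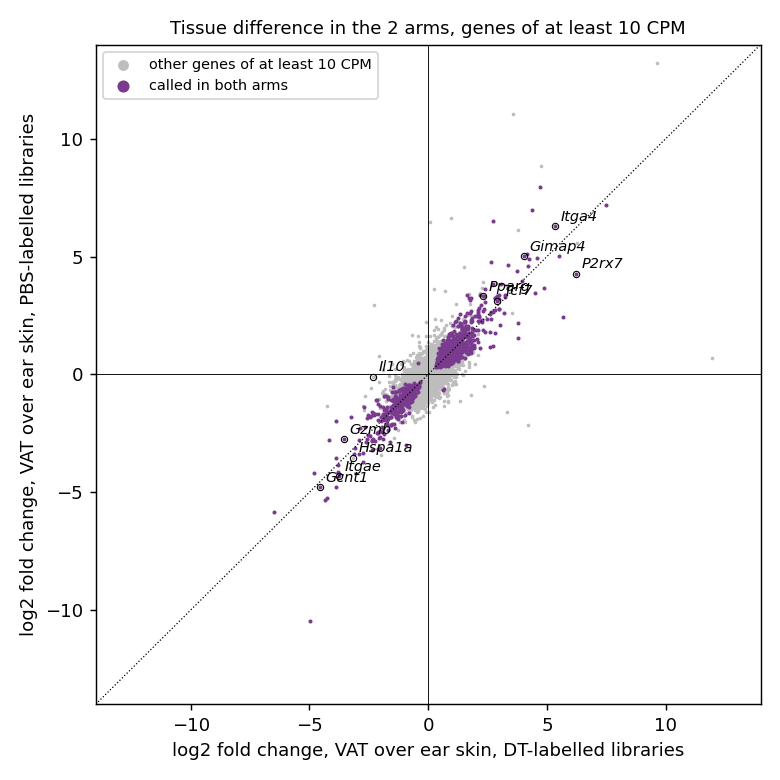
Log2 fold change of VAT over ear skin Treg within DT-labelled (horizontal axis) and within PBS-labelled libraries (vertical axis) for genes of at least 10 CPM, one point per gene, purple where called in both arms. The points lie along the diagonal, with Pearson's r = 0.78 across these genes, which are not independent replicates.

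Spleen, lung and liver Treg of the same design (6 libraries each) place the difference among 5 tissues. Of the 2402 better expressed genes that were higher in VAT, ear skin had the lowest mean of the 5 tissues for 1691 and VAT the highest for 841. Spleen was above both for 1201, between them for 906 and below both for 295. Of the 1098 that were lower in VAT, ear skin had the highest mean for 708 and VAT the lowest for 303, and spleen was below both for 650. These are descriptions of group means, with no test.

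Among genes of the first pattern, lowest in ear skin, Itga4 averaged 489 ± 84.8 CPM in VAT, 8.98 ± 5.18 CPM in ear skin and 272 ± 71.7 CPM in spleen (SD, n = 8, 6 and 6), and 185 ± 46.1 CPM in lung and 267 ± 34.8 CPM in liver (SD, n = 6 each). Gimap4 averaged 1069 ± 205 CPM in VAT and 47.5 ± 25.4 CPM in ear skin, beside 1407 ± 208 CPM in spleen, and VAT was not tested against spleen. Art2b was highest in spleen (258 ± 61.1 CPM) and Tcf7 as well (293 ± 42.6 CPM, beside 63.5 ± 44.7 CPM in VAT and 7.40 ± 4.93 CPM in ear skin).

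For other genes VAT had the highest mean of the 5 tissues. Ltb4r1 averaged 549 ± 217 CPM in VAT and 84.9 ± 27.0 CPM in ear skin, beside 4.23 ± 2.53 CPM in spleen, 34.5 ± 15.3 CPM in lung and 37.7 ± 10.4 CPM in liver. Pparg, Tox2, Plin2 and Pcyt1a were also highest in VAT, with Pparg at 64.9 ± 30.2 CPM in VAT and 8.41 ± 0.71 CPM in ear skin, next to 4.90 ± 3.20 CPM in lung. Fos was also high in ear skin. It averaged 2120.5 ± 928 CPM in VAT and 542 ± 162 CPM in ear skin, beside 5.57 ± 1.25 CPM in spleen, 121 ± 34.1 CPM in lung and 212 ± 53.5 CPM in liver.

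Ear skin had the highest mean for Gcnt1, which averaged 7.07 ± 1.92 CPM in VAT and 176 ± 47.8 CPM in ear skin, beside 5.72 ± 3.61 CPM in spleen, 30.1 ± 7.64 CPM in lung and 40.3 ± 17.7 CPM in liver. VAT was near spleen and below lung and liver. Itgae averaged 135 ± 56.5 CPM in VAT and 2049 ± 334 CPM in ear skin, beside 231 ± 90.2 CPM in spleen, 516 ± 105 CPM in lung and 687 ± 179 CPM in liver, so that ear skin had the highest mean of the 5 tissues and VAT the lowest. Per3, Hlf and Nr1d1 were also highest in ear skin, and VAT came second for each. Per3 averaged 30.6 ± 5.82 CPM in VAT and 124 ± 16.6 CPM in ear skin, but 13.4 ± 3.64 CPM in spleen, 13.2 ± 6.05 CPM in lung and 14.1 ± 5.31 CPM in liver. Icos was lower in VAT than in ear skin, lung and liver (457 ± 119, 1544 ± 73.5, 1728 ± 311 and 2196 ± 401 CPM) and nearer to spleen (358 ± 66.8 CPM). Hspa1a was high in ear skin and in liver (87.6 ± 92.3 CPM in VAT, 829 ± 286 CPM in ear skin, 487 ± 265 CPM in liver) and near 0 in spleen.

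**Figure D5:**
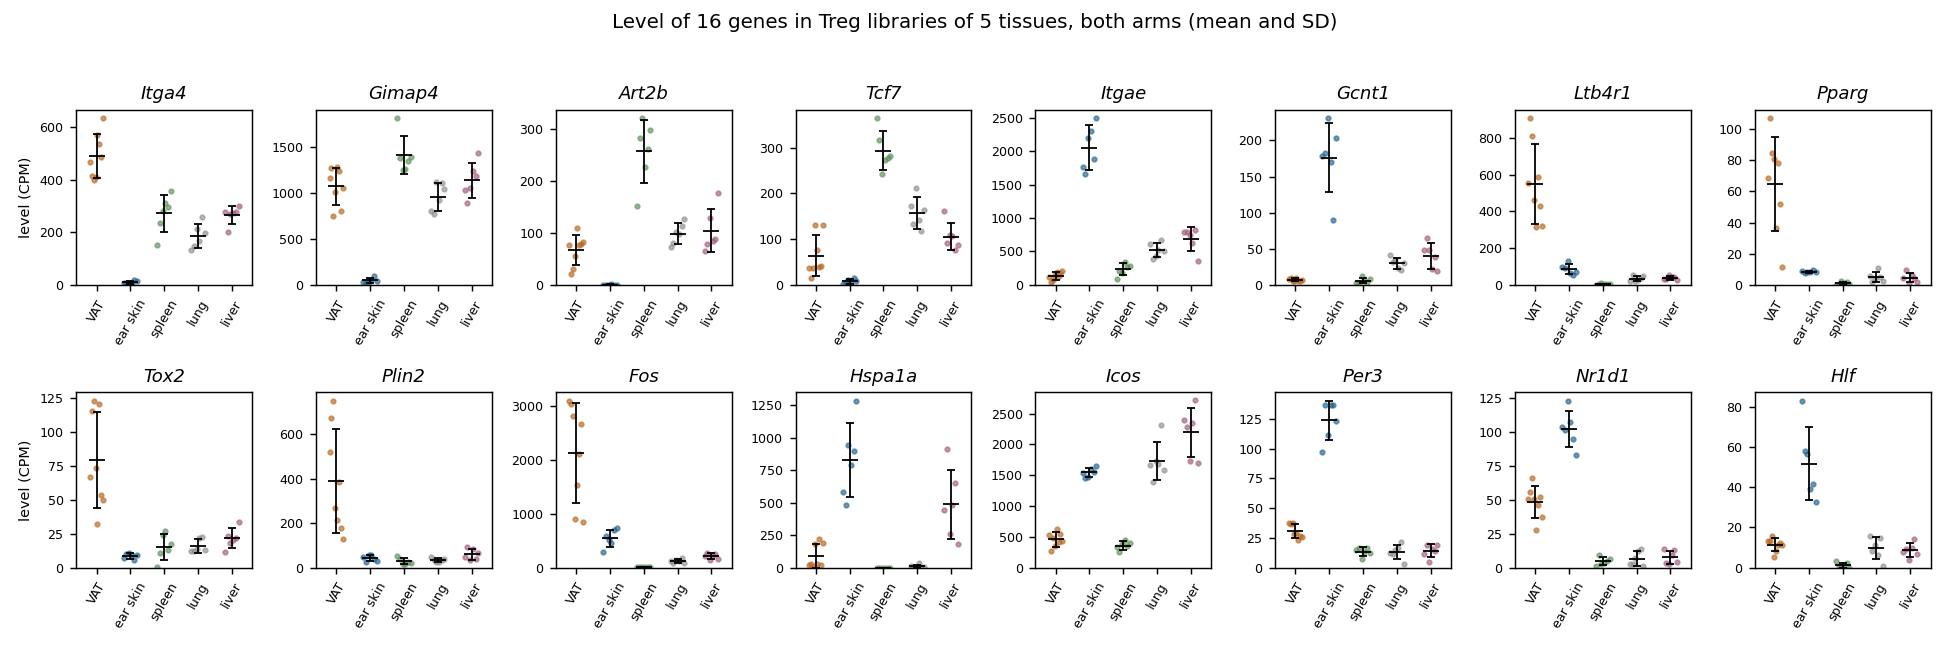
Expression of 16 genes in CPM (vertical axes) in Treg of VAT (n = 8), ear skin, spleen, lung and liver (n = 6 each), with a point per library, a dash at the mean and error bars of 1 SD. Itga4, Gimap4, Art2b and Tcf7 are lowest in ear skin, Ltb4r1, Pparg, Tox2 and Plin2 are highest in VAT, and Itgae, Gcnt1, Per3, Nr1d1 and Hlf are highest in ear skin.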

How the data were processed

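RNA-seq libraries of small sorted Treg samples were read from the deposited table of whole-number counts per gene, made by the authors with STAR 2.7.3a and featureCounts on mm10, per the submitters' processing notes. Which annotation was used, whether strand was used and how multi-mapping reads were counted is not given in the sources used here. IDs were matched to GENCODE M21 symbols (52936 of 55011). Of the 50 libraries, 14 entered the main fit and 18 others, from spleen, lung and liver, gave levels.

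Genes passing filterByExpr (minimum count 10) were tested with edgeR 4.0.16 (R 4.3.3, TMM, glmQLFit, glmQLFTest). The main model held tissue and arm as additive terms, and the tissue term was tested. Contrasts within and between the arms came from a fit to all 14 libraries with a mean for each group. Their p-values therefore use a spread shared by both arms. Benjamini-Hochberg adjustment was over all 15099 genes at 0.05. Tested on simulated counts (13874 genes), the fit recovered 23.9% of 67 genes changed 1.5-fold, 49.3% of 67 changed 2-fold and 72.7% of 66 changed 4-fold. The simulation gave 102 calls, against 5559 in the data. The adjustment was therefore stricter there, and these rates do not give the power of the real comparison. Named were the 15 largest changes in each direction among called genes of at least 10 CPM without overlap, up to 4 members with the smallest adjusted p per list, and a fixed set of Treg genes. The members and lists were chosen with earlier results of these data known. Summed marker levels are CPM without TMM. Alternatives were RLE size factors, other filters, DESeq2 1.42.0, limma voom 3.58.1, all 32 peripheral libraries, no arm term, a replicate block, each arm, and each library left out. Thinning, and leaving out the 4 VAT libraries with the highest B cell marker sums (nearly all Ighm), were chosen after seeing the data. Libraries of a group all differed by more than counting noise (chi-square of at least 6.79 for each degree of freedom), so none was taken for a repeat deposit of another. This does not show that they came from separate mice. Promoters came from RefSeq tables of GRCm38.p6.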

Additional observations from a re-analysis of the deposited data

Results flagged for a closer look

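Among 426 sets of values, 1 for each named gene or library measure in each tissue, 25 (5.87%) had 1 library far from the others, and chance gives about 1 in 20. No explanation was weighed.

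VAT DT-labelled library 7 was the outlying library in 5 of the 25. Its fibroblast markers summed to 1289.86 CPM (next 94.2 CPM) and its macrophage and monocyte markers to 124.103 CPM (next 16 CPM). Its share of counts in genes under 1 CPM was 0.764% (next 0.469%), its olfactory and vomeronasal genes summed to 627.53 CPM (next 361 CPM), and Cd36 stood at 13.02 CPM (next 4.52 CPM). The same library was in every VAT range given above.

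Elsewhere in VAT, the highest library stood apart for Gimap7 (575.21 CPM, next 427) and Tff1 (2.4617 CPM, next 1.00) in PBS-labelled 2, for Cxcl3 (88.727 CPM, next 39.0) and Dusp14 (36.735 CPM, next 26.1) in PBS-labelled 3, and for Ccr9 (134.02 CPM, next 51.0) in PBS-labelled 1. It did so for Cdc42bpb (2.5505 CPM, next 1.26) in DT-labelled 5, for Gapdh (517.09 CPM, next 454) and Dhrs3 (74.651 CPM, next 47.2) in DT-labelled 6, and for Hsph1 (500.72 CPM, next 251) and Ifi203 (201.74 CPM, next 153) in DT-labelled 8. Rasgef1b was lowest in DT-labelled 8 (2.1326 CPM, next 6.73).

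In ear skin, DT-labelled 6 was highest for Asb2 (29.179 CPM, next 10.7), Dusp16 (94.499 CPM, next 45.9) and Klrb1f (14.258 CPM, next 4.59). DT-labelled 5 was highest for Ccl5 (94.464 CPM, next 43.6), Cxcr3 (128.2 CPM, next 53.2) and the gamma delta T cell markers (5.716 CPM, next 3.43). PBS-labelled 1 was highest for Lpcat3 (67.588 CPM, next 49.9), PBS-labelled 2 for Dusp14 (119.7 CPM, next 80.9) and PBS-labelled 3 for the CD8 T cell markers (26.62 CPM, next 16.2).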

How the results depend on the processing

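VAT against ear skin gave 4821 to 6186 calls when 1 library was left out, 10217 with no filter on low counts and 3221 in the fit to genes of at least 10 CPM, against 5559. None of the 5559 was called in the opposite direction under any alternative. The DT-labelled arm gave 2619 calls, 1152 with a replicate block, which also kept only the 10 libraries with shared numbers, and 1621 (without ear skin DT-labelled library 5) to 3076 when 1 library was left out, and 42.9% of its calls were higher with DESeq2, against 54.7%. The PBS-labelled arm gave 2872 calls, and 1823 (without ear skin PBS-labelled library 2) to 3047. The difference between the arms, 0 calls, gave 0 to 1 when 1 library was left out, 64 with no filter, 26 with DESeq2, 5 with that block on those 10 libraries and 6 without the 4 VAT libraries high in Ighm. DT-labelled against PBS-labelled gave 49 calls, 22 (without VAT PBS-labelled library 2) to 73 when 1 library was left out, 242 with no filter, 180 with DESeq2 and 77 without those 4 libraries. The cause of these moves was not tested.

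Deviations of same-numbered VAT and ear skin libraries had correlations of −0.104 to 0.049, and those with unlike numbers −0.120 to 0.109. Libraries of 1 mouse need not deviate together in 2 tissues, so this cannot show whether the numbers pair them. Of 1776 list counts over 24 settings, 1609 stayed within 1.5 times. Log2 fold changes turned sign for 7 uncalled genes: Foxp3 (0.047 with no filter, 0.0134 with all 32 libraries, −0.1179 to 0.0259 when 1 library was left out), Il2ra (−0.0122 in the fit to genes of at least 10 CPM, −0.0191 (without VAT PBS-labelled library 3) to 0.2208 when 1 was left out, −0.22 in DT-labelled libraries), Ctla4 (−0.003 in that fit, −0.0608 in DT-labelled libraries), Areg (−0.0813 without the 4 libraries, −0.11 in DT-labelled libraries), Cd36 (−0.35 with limma voom, −0.332 (without VAT DT-labelled library 7) to 1.6475 when 1 was left out), Ccr2 (−0.30 in DT-labelled libraries) and Itgb7 (−0.0789 in PBS-labelled libraries). At the depth of these libraries the self-test recovered 23.9% of 1.5-fold, 49.3% of 2-fold and 72.7% of 4-fold changes (13874 genes). Few genes were changed in it and 102 were called, so these rates do not give the power of VAT against ear skin. Depth was not varied.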

Other observations

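Some gene families outside the lists are given here, chosen with their genes after their values were seen. They were counted among members of at least 10 CPM, and of all genes of that level 27% were higher and 12.3% lower in VAT. In this range tetraspanins (Tspan) were higher in 5 of 7 and lower in 0, with Tspan13 at 306 to 616 CPM (median 421) in VAT, against 77.8 to 99.1 CPM (median 90.7) in ear skin (2.23 ± 0.12 SE, edgeR adjusted p = 1.35e-11). Schlafen genes, growth regulators of T cells, were higher in 4 of 5, with Slfn2 rising by 1.35 ± 0.13 (SE, edgeR adjusted p = 1.13e-07) and Slfn1 by 1.88 ± 0.21 (SE, edgeR adjusted p = 9.89e-07). Phosphodiesterases were lower in 5 of 6, with Pde4b, which breaks down cyclic AMP, at 28.5 to 125 CPM (median 69.8) in VAT, against 158 to 239.9 CPM (median 202) in ear skin (−1.5 ± 0.24 SE, edgeR adjusted p = 0.000306). Bcl2, which protects from apoptosis, stood at 18.7 to 88.9 CPM (median 42.0) in VAT, against 2.7 to 10.3 CPM (median 5.99) in ear skin (2.88 ± 0.36 SE, edgeR adjusted p = 1.21e-05).

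Krüppel-like factors were higher in 6 of 10 and lower in 0, or 5 with RLE size factors and in the fit to genes of at least 10 CPM, with Klf13 rising by 0.97 ± 0.09 (SE, edgeR adjusted p = 6.33e-08). Regulators of G protein signalling were lower in 4 of 10 and higher in 2, with Rgs1 at 231 to 322 CPM (median 244) in VAT, against 677 to 1062 CPM (median 895) in ear skin (−1.79 ± 0.11 SE, edgeR adjusted p = 1.46e-10). Rgs11 fell by 1.47 ± 0.15 (SE, edgeR adjusted p = 2.33e-07) and Rgs9 fell by 1.67 ± 0.30 (SE, edgeR adjusted p = 0.000232). Dual-specificity phosphatases were higher in 5 of 15 and lower in 3, or 3 and 3 after thinning, near the shares of all genes of that level, and the 3 that fell did so without overlap, among them Dusp4 (−2.31 ± 0.16 SE, edgeR adjusted p = 4.7e-09) and Dusp14 (−1.85 ± 0.17 SE, edgeR adjusted p = 5.85e-08). Ribosomal protein genes were higher in 32 of 73 and lower in 1, which became 11 and 4 in the fit to genes of at least 10 CPM.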
